A study of Oncorhynchus mykiss with 42 samples.

Results

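The response of stage III testis to follicle-stimulating hormone (FSH) was read from 12 of 42 arrays: 6 of testis fragments cultured with FSH and 6 of fragments cultured without hormone (Ctrl), chosen by their stage and treatment labels. Rainbow trout (Oncorhynchus mykiss) of an all-male population gave the testes, which were cut into small pieces and distributed at random over membrane inserts. Both groups spent 96 h at 12 °C in the same modified L15 medium, renewed at 48 h, and the FSH group also received 500 ng/mL of purified salmonid FSH. For comparison there were 6 stage III arrays with luteinizing hormone (LH) at the same dose, 3 of uncultured stage III testis (T0), and the same groups of stage I-II testis: 6 Ctrl, 6 FSH, 6 LH and 3 T0. The labels describe neither the genotype or age of the fish nor the germ cells at each stage, and they do not tie fragments to fish, so p-values measure only the spread between these samples, which may be technical.

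FSH and LH are pituitary glycoprotein hormones. Both act through G protein-coupled receptors that raise cyclic AMP in somatic cells of the testis: Sertoli cells, which nurse the germ cells, and Leydig cells, which make androgens. In fish, FSH acts on Leydig cells as well as Sertoli cells, so it reaches germ cells through both growth factors and steroids. Fragments keep somatic and germ cells together. In such whole-tissue RNA, fewer cells of a type and less RNA per cell cannot be told apart.

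The arrays carry spotted cDNA clones, and each clone's value is a log2 signal from cDNA labelled with radioactive phosphorus. Neither the files nor the gene table used here pairs clones with genes, so clones are given by ID and the tissue label could not be checked against testis markers. On the 12 arrays clones had a median signal of 99 to 167 intensity units, and the share of clones brighter than their array's background was 62.5% to 77.2%. Within a group, arrays correlated with one another at a mean r of 0.943 to 0.968 across clones. Median clone signal was 119 ± 15.6 with FSH and 128 ± 23.9 in Ctrl (SD, n = 6 each; two-sided exact permutation p = 0.474). A control presumed to be the repeatedly spotted cvu03687 read 127 ± 21.9 with FSH and 120 ± 25.2 in Ctrl (SD, n = 6 each; two-sided exact permutation p = 0.617). In stage I-II this control differed more between groups: 231.5 to 420 in Ctrl, 178 to 236.5 with FSH and 103.5 to 148 with LH. On T0 arrays it read 550.5 to 955.5 in stage I-II and 209.5 to 1125.5 in stage III. Whether this imbalance affects the stage I-II and T0 comparisons was not tested. Ctrl replicates 58 and 60 lay apart from the other Ctrl arrays on the second principal component of stage III, at 16.5 and 14.0 against -13.9 to -7.35. Ctrl 58, FSH 61 and LH 67 came from scanner exports with another column order and lay at 12.9, 20.8 and 13.7 on the third component. The stage III FSH count and the changes of some named clones are therefore also given without these arrays. The other results are not.

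Of 8175 clones, 63 were higher with FSH than in Ctrl (0.771%) and 50 were lower (0.612%), by limma with Benjamini-Hochberg adjustment at an adjusted p under 0.05. An unadjusted p under 0.05 was reached by 659 clones (8.06%). A pair of clones rose far more than any other called clone: 1rt34l03_b_f02 by 8.0-fold and tcbk0013.j.13 by 6.31-fold. The next greatest rise was 2.52-fold. The greatest measured fall among clones above background in both groups was 2.03-fold from the deposited values (tcay0025.a.09), and 1.82-fold for that clone from the scanner signal. With only the FSH and Ctrl arrays of stage III in the fit, 34 clones were called higher and 25 lower (59 in all, 57 of them among the 113), and with equal block medians 227 were called (108 of the 113). Without the 3 arrays of another export order, 116 clones were called, of which 92 were among the 113. Without Ctrl replicates 58 and 60, 122 were called, of which 83 were among the 113.

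**Figure D1:**
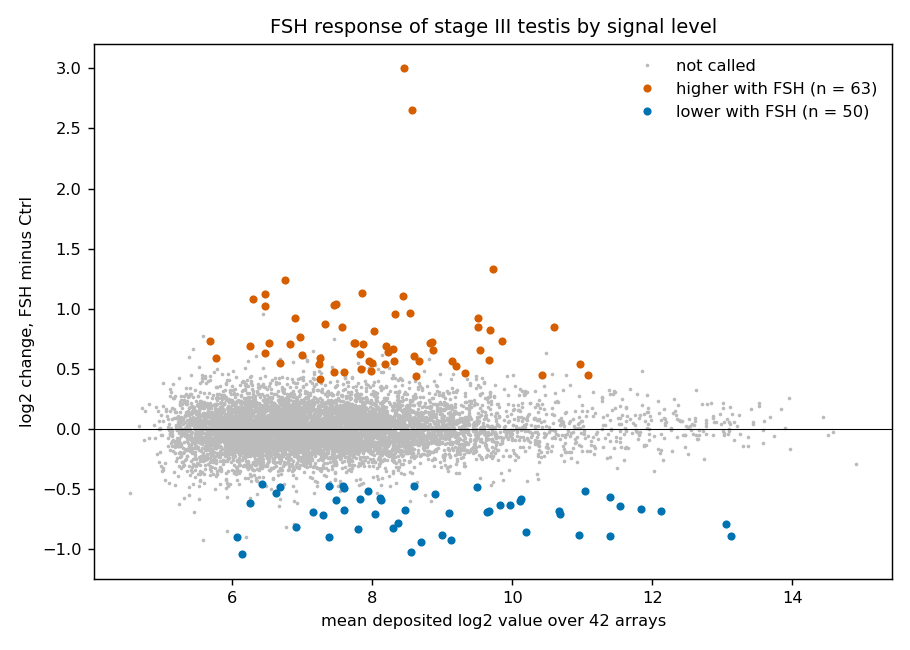
Log2 change of FSH minus Ctrl in stage III (vertical axis, fitted means of 6 arrays each) against the mean deposited log2 value over 42 arrays (horizontal axis), 1 point per clone for 8175 clones. Orange points are the 63 clones called higher, blue points the 50 called lower and grey points the others; 2 orange points stand above 2.5, and all called falls end near -1.

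Clone 1rt34l03_b_f02 lay between 5.94 and 6.54 in the 6 Ctrl arrays, with a median of 6.34. With FSH its log2 values ran from 8.75 to 9.75, with a median of 9.40. The lowest FSH array was above the highest Ctrl array by more than the whole range within either group. Group means were 6.32 ± 0.21 in Ctrl and 9.32 ± 0.35 with FSH (SD, n = 6 each), a log2 change of 3.00 ± 0.22 (SE; limma adjusted p = 6.4e-14). The transcript was near the floor of the assay without hormone: its scanner signal was above background on 3 of 6 Ctrl arrays and on all 6 FSH arrays. It was above background on 0 of 3 arrays of uncultured stage III testis, where its log2 values were 5.68, 6.08 and 6.14.

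Clone tcbk0013.j.13 had log2 values of 6.12 to 7.0 in Ctrl, with a median of 6.42. With FSH the values lay between 8.88 and 9.33, with a median of 9.15. These groups did not overlap either, and the FSH arrays were the closer together. The mean went from 6.47 ± 0.33 to 9.13 ± 0.15 (SD, n = 6 each), a log2 change of 2.66 ± 0.17 (SE; limma adjusted p = 3.5e-16). Its signal exceeded background on 3 of 6 Ctrl arrays and on 2 of 3 T0 arrays of stage III.

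The greatest fitted fall was that of clone 1rt69n20_d_g10, whose size is not measured because it was below background with FSH. It went from 6.58 to 7.0 in Ctrl (median 6.82) to 5.06 to 6.23 with FSH (median 5.79). The 2 groups did not overlap. Means were 6.79 ± 0.16 and 5.75 ± 0.45 (SD, n = 6 each), a log2 change of -1.04 ± 0.16 (SE; limma adjusted p = 1.5e-05). The signal exceeded background on 5 of 6 Ctrl arrays and on 0 of 6 FSH arrays, so the fall has only a bound: at least 1.22-fold lower with FSH on the quantile-normalised scanner scale. The bound sets the Ctrl mean against, on each FSH array, the lowest signal above background. It is a bound on group means that leaves out the spread between arrays. The Ctrl mean also includes replicate 57, which was not above background.

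Clone tcay0025.a.09 fell from a range of 8.42 to 9.82 in Ctrl (median 8.80) to one of 7.76 to 8.12 with FSH (median 7.87). Every FSH array was below every Ctrl array, and all 12 were above background. Means were 8.92 ± 0.53 and 7.89 ± 0.12 (SD, n = 6 each), a log2 change of -1.02 ± 0.21 (SE; limma adjusted p = 0.0016). The Ctrl spread is wide, and without Ctrl replicates 58 and 60 the change was -0.72 and no longer passed (limma adjusted p = 0.063). On Ctrl replicate 60 the deposited value was 9.82, but the quantile-normalised scanner value at the assigned position was 8.91. On Ctrl replicate 58 they were 9.22 and 8.75. From the scanner signal the fall was 1.82-fold.

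**Figure D2:**
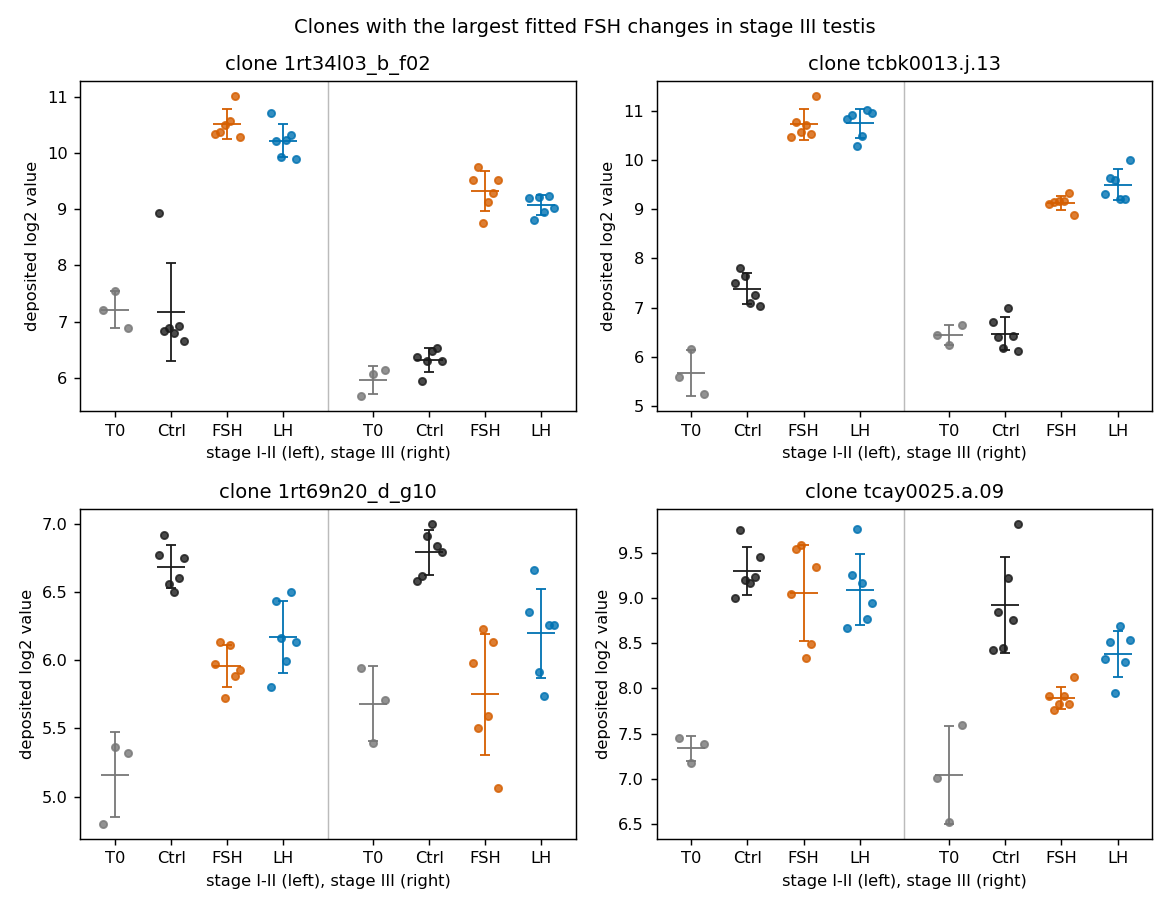
Deposited log2 values (vertical axes) of the 2 clones with the largest fitted rises and the 2 with the largest fitted falls under FSH in stage III, 1 point per array in 8 groups, stage I-II on the left and stage III on the right of each panel. Crossbars are group means and error bars are SD (n = 6, or n = 3 for T0). In stage III the FSH points of each clone do not overlap the Ctrl points, and for tcay0025.a.09 the FSH and Ctrl points of stage I-II do.

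The other risers were modest in size. The 63 rises had a median of 1.62-fold and ranged down to 1.33-fold. At least 1.5-fold was reached by 43 of them and at least 2-fold by 11. In 8 of the 63 no Ctrl array was above background, and in 2 of these no FSH array was either, so their folds are not measured on both sides. Over the 55 clones above background on at least 1 array of each group, the median was 1.59-fold, and 9 rose at least 2-fold. Every FSH array lay above every Ctrl array for 38 of the 63 risers. Over all clones that count was 48 (0.587%), and since the call used the same values, nothing is read from the difference.

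The falls were narrower in range than the rises. The 50 fallers had a median of 1.60-fold, with 35 at 1.5-fold or more and 2 at 2-fold or more. In 3 of them, 1rt69n20_d_g10 included, no FSH array was above background. Over the other 47, each above background on at least 1 array of both groups, the median was 1.59-fold. From the deposited values 1 of them, tcay0025.a.09, fell at least 2-fold. In 25 of the 50, every FSH array lay below every Ctrl array, against 29 of all clones (0.355%), again from the same values. Spot brightness depends on the probe as well as the transcript, so levels were not compared between clones. The median level, as a description of where the calls lay on the signal scale, was 8.57 for fallers, 8.0 for risers and 7.15 for all clones.

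Some called clones lay side by side on the membrane. By their assigned positions, 8 of 63 risers and 22 of 50 fallers touched another clone called in the same direction. Counting touching calls once left 59 risers and 36 fallers. Several fallers were also assigned to the same parts of the membrane without all touching. Their position names began with H02 (1rt69n20_d_g10 among them), E04, H04 or I04. Touching was not counted over all clones, and how evenly the calls spread over the membrane was not tested. Clones tcbk0013.j.13, 1rt69n20_d_g10 and tcay0025.a.09 each touched another called clone, and 1rt34l03_b_f02 did not. Whether neighbouring spots share signal or hold related transcripts was not tested. The stage I-II, T0 and LH counts of risers and fallers given below take touching clones separately, so they are not counts of independent clones. A position over 4 times brighter was touched by 11 risers (17.5%) and 16 fallers (32.0%), against 52.1% of all clones. The measure is relative to the clone's own signal, and both lists had higher median levels than all clones. Nothing is therefore read from the difference.

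Clone IDs fall into prefixes, whose meaning the files do not give. The largest group, 1rt, held 2834 clones with 22 risers and 14 fallers (1.27% called), close to the 1.38% of all clones that were called in either direction. The tcad group held 439 clones with 8 risers and 7 fallers (3.42% called). Of only 9 tcam clones, 4 fell and 0 rose, with log2 changes from -0.69 to -0.53, and 3 of these 4 were assigned to touching positions. These prefixes were singled out after their values were seen and were not tested.

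The next question was whether stage I-II testis gave the same FSH response, on 12 arrays whose values do not enter the stage III difference. They do enter the spread that all 8 groups share in the fit, and so the stage III calls. There FSH raised 91 clones (1.11%) and lowered 49 (0.599%; limma adjusted p under 0.05). Of the 63 stage III risers, 38 were also called higher in stage I-II: 60.3% of the stage III risers and 41.8% of the stage I-II risers. Of the 50 fallers, 32 were also called lower: 64.0% of the stage III fallers and 65.3% of the stage I-II fallers. No riser was called lower and no faller higher. Lists were also made with no shared array, an alternative added after the data were seen: a fit of the 12 stage III FSH and Ctrl arrays alone called 34 clones higher (0.416%) and 25 lower (0.306%). In a fit of the 12 stage I-II FSH and Ctrl arrays alone, which called 100 clones higher (1.22%) and 59 lower (0.722%), 26 of those 34 were called higher and 19 of the 25 lower. All 34 lay above 0 in stage I-II, with a median of 0.87 on the log2 scale, and all 25 below, with a median of -0.64.

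Direction was shared beyond the calls. The stage I-II change was above 0 for 60 of 63 risers, with a median of 0.68 on the log2 scale, and below 0 for 49 of 50 fallers, with a median of -0.59. The median over all 8175 clones was -0.01. In stage I-II every FSH array lay above every Ctrl array for 35 of the 63 risers (1.11% of all clones), and below for 25 of the 50 fallers (0.709% of all clones). The 25 risers not called in stage I-II had a median change there of 0.29, and the 18 such fallers one of -0.34. In the other direction, 53 clones were called higher in stage I-II alone. Their stage III change was above 0 for 52 of 53, with a median of 0.34. The 17 clones called lower in stage I-II alone had a median of -0.31 in stage III, below 0 for 16 of 17.

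**Figure D3:**
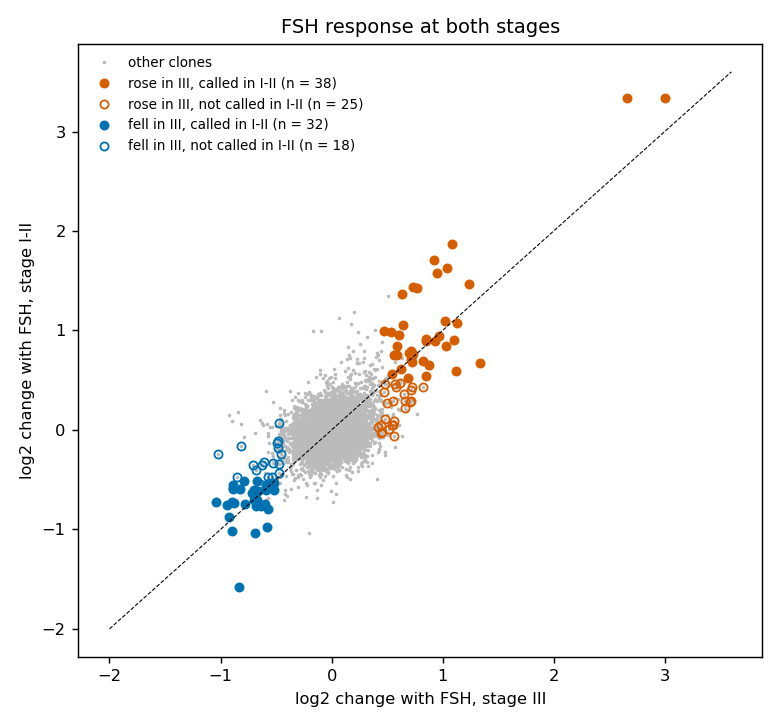
Log2 change with FSH in stage I-II (vertical axis) against that in stage III (horizontal axis), 1 point per clone; the dashed line marks equal change. Orange marks the 63 clones that rose and blue the 50 that fell in stage III, filled where also called in stage I-II (38 and 32) and open where not (25 and 18). Nearly all coloured points lie in the quadrants of shared sign.

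Both strongest risers rose in stage I-II too. Clone tcbk0013.j.13 had log2 values of 7.03 to 7.81 in stage I-II Ctrl (median 7.38) and of 10.46 to 11.30 with FSH (median 10.64). The groups did not overlap, and the log2 change was 3.33 ± 0.17 (SE; n = 6 each; limma adjusted p = 4.6e-20). Clone 1rt34l03_b_f02 ran from 6.66 to 8.93 in Ctrl (median 6.86) and from 10.29 to 11.01 with FSH (median 10.43), a log2 change of 3.34 ± 0.22 (SE; limma adjusted p = 1.3e-15). The means of both clones were higher in stage I-II than in stage III in the Ctrl and the FSH arrays alike, a difference between stages that was not tested.

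The falling clones differed in how far they were shared. Clone 1rt69n20_d_g10 fell by 0.73 on the log2 scale in stage I-II (SE 0.16; limma adjusted p = 0.0034). Again no FSH array was above background, so the fall has the same kind of bound on group means, at least 1.31-fold. Clone tcay0025.a.09 changed by -0.24 ± 0.21 there (SE; limma adjusted p = 0.94), with FSH values of 8.34 to 9.58 spanning much of the Ctrl range of 9.0 to 9.75.

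A test of the difference itself, the FSH change in stage III minus that in stage I-II, called 0 of 8175 clones in limma. An unadjusted p under 0.05 was reached by 318 clones (3.89%). From the scanner signal 1 clone was called, and with equal block medians 4 were. Among the 318 were 24 of the 63 risers, 12 of them among the 38 called at both stages, and 7 of the 50 fallers. The stage III values that chose both lists enter this difference, so these counts are no separate test. The lack of calls does not show that the stages responded alike. Among the named clones the difference was -0.34 ± 0.31 for 1rt34l03_b_f02, -0.68 ± 0.24 for tcbk0013.j.13 and -0.78 ± 0.29 for tcay0025.a.09 (SE; limma adjusted p = 0.999 for each). For 1rt69n20_d_g10 it is not measured, since its fall has only a bound at both stages. The difference for 1rt34l03_b_f02 includes stage I-II Ctrl replicate 19, at 8.93 against 6.66 to 6.92 in the other Ctrl arrays. From the scanner signal this clone's FSH changes were 3.03 in stage III and 3.72 in stage I-II, farther apart than from the deposited values. Over the 113 called clones the SE of the stage difference was 0.15 to 0.35, with a median of 0.20.

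Where the responding transcripts stood before culture was read from the T0 arrays, which enter the FSH calls only through the shared spread. Between stages, 984 clones were lower in uncultured stage III than in uncultured stage I-II testis (12.0%), and 945 were higher (11.6%; limma adjusted p under 0.05, n = 3 each). Of the 50 clones that FSH lowered in stage III, 39 (78.0%) were among those lower in stage III at T0, and 0 were among the higher. Their median T0 difference was -0.93 on the log2 scale, against -0.01 over all clones. Of the 63 risers, 27 (42.9%) were lower at T0 in stage III and 3 (4.76%) were higher, with a median of -0.36. Both lists held larger shares of clones that were lower in stage III before culture than all clones did, and the fallers the larger share of the 2 lists. Both lists also had higher median levels than all clones, and the shares were not set against clones of like level. Touching clones were each counted in these shares. In a fit of the 6 T0 arrays alone, 840 clones were lower in stage III (10.3%) and 817 higher (9.99%). Of the 25 fallers from the 12 stage III arrays alone, 17 were then called lower and 1 higher (median -1.03). Of the 34 risers, 14 were called lower and 2 higher (median -0.48).

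**Figure D4:**
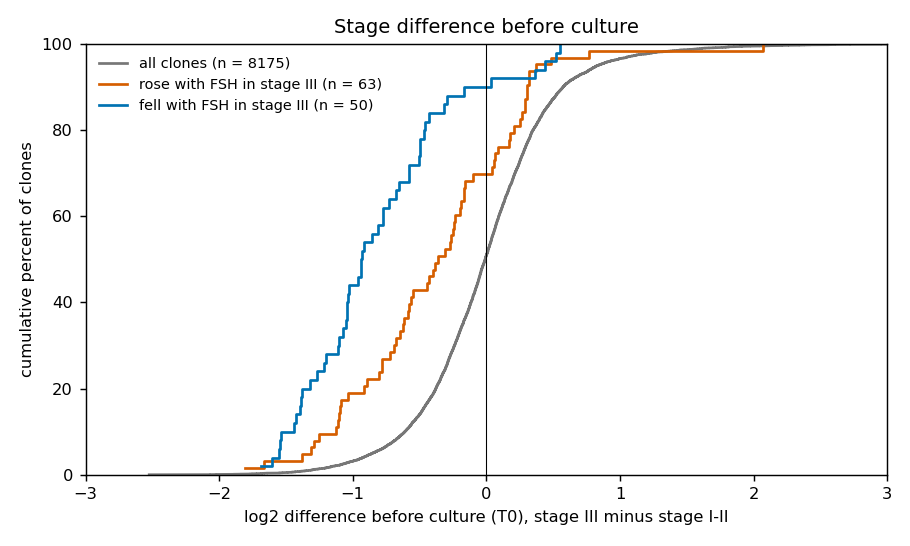
Cumulative percent of clones (vertical axis) by the log2 difference of uncultured stage III minus uncultured stage I-II testis (horizontal axis, 3 arrays per stage), for all 8175 clones in grey, the 63 stage III risers in orange and the 50 fallers in blue. The blue curve lies farthest left, with a median of -0.93, and the orange one between it and grey, with a median of -0.36.

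Levels of both lists were also set side by side over all groups; the stage III Ctrl and FSH values among them chose the lists. The median log2 level of the fallers, over clones, was 8.06 in stage III T0, 8.77 in Ctrl, 7.96 with FSH and 8.38 with LH. Fragments cultured without hormone had the highest median of the 4 groups. Per array, the T0 medians of 7.90 to 8.12 overlapped those with FSH, 7.95 to 8.14. In stage I-II the same clones stood at 9.24 in T0, 9.07 in Ctrl, 8.56 with FSH and 8.68 with LH. For the risers the stage III medians were 6.87 in T0, 7.5 in Ctrl, 8.29 with FSH and 8.0 with LH. Their stage I-II medians were 7.22, 7.90, 8.59 and 8.36 in the same order, so in both stages the level was lowest before culture.

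Array by array, the median over the 63 risers in stage I-II was 7.80 to 7.97 in Ctrl and 8.45 to 8.67 with FSH. The median over the 50 fallers in stage I-II was 9.0 to 9.15 in Ctrl and 8.36 to 8.86 with FSH. Neither pair of ranges overlapped. For the clones called from the 12 stage III arrays alone, the stage I-II medians were 7.42 to 7.63 in Ctrl and 8.31 to 8.54 with FSH over the 34 risers. Over the 25 fallers they were 9.6 to 9.81 in Ctrl and 8.98 to 9.5 with FSH, so these ranges did not overlap either. The median of all clones lay between 7.15 and 7.17 on every array.

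**Figure D5:**
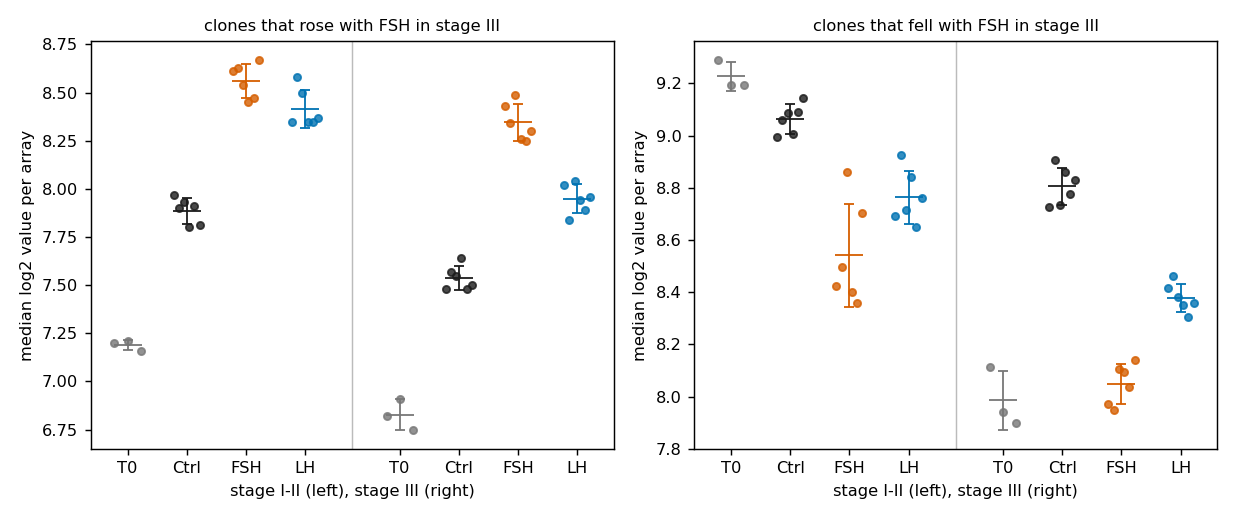
Median deposited log2 value per array (vertical axes) over the 63 clones that rose (left panel) and the 50 that fell (right panel) with FSH in stage III, 1 point per array, with group mean and SD (n = 6, or n = 3 for T0). The stage III Ctrl and FSH differences chose the clones, with a spread pooled over all groups. In stage I-II the riser medians with FSH lie at 8.45 to 8.67, above Ctrl at 7.80 to 7.97.

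LH was the other gonadotropin tested. In stage III it shares its Ctrl arrays with the FSH comparison, so the values are only set side by side. LH against Ctrl in stage III called 36 clones higher (0.440%) and 10 lower (0.122%). The median LH change was 0.44 for the FSH risers and -0.39 for the FSH fallers, beside FSH medians of 0.70 and -0.68. With LH, clone 1rt34l03_b_f02 had log2 values of 8.80 to 9.23 and clone tcbk0013.j.13 of 9.20 to 10.01. Those were changes of 2.75 ± 0.22 and 3.02 ± 0.17 against Ctrl (SE; limma adjusted p = 1.5e-12 and 2.3e-18). The same Ctrl arrays helped to choose these clones, so these p-values are no separate test. In stage I-II, on separate arrays, LH called 136 clones higher (1.66%) and 107 lower (1.31%). Of the 63 stage III FSH risers, 29 were among the 136 (46.0% of the risers). Of the 50 fallers, 16 were among the 107 (32.0% of the fallers) and 1 among the 136.

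The direct comparison of FSH with LH in stage III asked which transcripts told the hormones apart. FSH arrays were higher than LH arrays for 11 clones (0.135%) and lower for 4 (0.0489%; limma adjusted p under 0.05). An unadjusted p under 0.05 was reached by 904 clones (11.1%). The 11 clones were higher with FSH than with LH by 0.49 to 0.90 on the log2 scale. Side by side, their FSH changes against Ctrl were 0.19 to 0.88 and their LH changes -0.47 to 0.20. In stage I-II, on other arrays, the FSH minus LH difference of these 11 had a median of 0.02, and 1 was called higher (background 0.0245%). The 4 lower clones differed by -0.67 to -0.51 in stage III. In stage I-II their median difference was -0.50, below 0 in all 4, and 1 was called lower (background 0.0367%). The count of 15 (0.183%) rests partly on single arrays and settings: it was 7 without FSH replicate 61, and 1 when only the FSH and LH arrays of stage III were fitted. It was 40 from the scanner signal and 59 with equal block medians.

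Clone tcba0015.e.19 had the greatest FSH excess. Its log2 values were 9.66 to 10.38 with FSH (median 10.06), 8.81 to 9.41 with LH (median 9.22) and 9.09 to 9.86 in Ctrl (median 9.5). FSH and LH arrays did not overlap, and Ctrl lay between and overlapped both. FSH exceeded LH by 0.90 ± 0.15 (SE; limma adjusted p = 0.0016), from means of 10.06 ± 0.24 and 9.16 ± 0.21 (SD, n = 6 each). Against Ctrl the FSH rise was 0.57 ± 0.15 (SE; limma adjusted p = 0.048), a call that 8 of the 12 fits without 1 array did not make. It was also lost in 7 of 16 other settings. They include the threshold of 0.01, which the adjusted p of the main fit had already missed. Over the 16 the change was as low as 0.44 and the limma adjusted p as high as 0.35. Among the 7 were the fit of only the FSH and Ctrl arrays (limma adjusted p = 0.18) and that without the 3 arrays of another export order (0.62, limma adjusted p = 0.052). Another was the fit without Ctrl replicates 58 and 60 (0.54, limma adjusted p = 0.12). In stage I-II the FSH minus LH difference was -0.14 ± 0.15 (SE; limma adjusted p = 0.75). Before culture the clone was dimmer, with stage III T0 values of 6.85, 6.89 and 7.27.

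Clone tcam0001.o.09 had the greatest FSH deficit. Values were 9.07 to 9.86 with FSH (median 9.48), 9.87 to 10.37 with LH (median 10.15) and 9.77 to 10.28 in Ctrl (median 10.02). The FSH arrays lay just below the LH arrays and overlapped Ctrl slightly. FSH was below LH by -0.67 ± 0.13 (SE; limma adjusted p = 0.015), from means of 9.44 ± 0.26 and 10.11 ± 0.20 (SD, n = 6 each), and without FSH replicate 61 the call was lost (-0.60, limma adjusted p = 0.064). It was lost in 5 other settings. Among them were the fit of the FSH and LH arrays of stage III alone (-0.67, limma adjusted p = 0.13) and the scanner signal (-0.44, limma adjusted p = 0.21). The threshold of 0.01, which the adjusted p of the main fit had already missed, was another. Its stage III fall against Ctrl was -0.58 ± 0.13 (SE; limma adjusted p = 0.0093). The call against Ctrl was lost when only the FSH and Ctrl arrays were fitted (limma adjusted p = 0.093), without the 3 arrays of another export order (-0.46, limma adjusted p = 0.12), and without Ctrl replicates 58 and 60 (-0.46, limma adjusted p = 0.12). In stage I-II it fell with FSH by 0.98 ± 0.13 (SE; limma adjusted p = 1.7e-06) and with LH by 0.49 (limma adjusted p = 0.033). It was higher before culture, at 10.87 to 11.12 in stage III T0 and 11.61 to 11.91 in stage I-II T0.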

How the data were processed

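The authors deposited a table of log2 values per clone for 42 arrays and, per the file headers, 1 AGScan export of spot intensity per array. The labels describe labelling of 5 µg of total RNA with 33P, 1 sample per array. The sources used here do not say how these log2 values were normalized. Of 9216 table rows, 8175 held values. The 64 water and 128 cvu03687 rows were empty, as were 849 clones.

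The log2 values were fitted as deposited with limma 3.58.1 (R 4.3.3): 8 group means over 42 arrays, lmFit, eBayes, two-sided tests, Benjamini-Hochberg adjustment over 8175 clones, called under 0.05. The fit was tested on simulated data with independent noise for each clone and array. A clone's noise had the same spread on every array, pooled over the 8 groups, whereas the real arrays differed in spread between groups. Recovery and false calls in the real stage III arrays may therefore be worse than the simulated figures. For FSH in stage III it called 43% of the smaller set changes, which were below 1.5-fold, and 98% of the 2-fold ones, with 6 false calls. For FSH in stage I-II these were 46%, 99% and 8. A clone that was not called may therefore still have changed. Fold changes are differences of log2 means. Exact permutation tests (scipy 1.17.1) enumerated 924 splits.

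Since exports list positions and the table lists clones, each clone was given the position whose profile over the arrays was closest in a joint 1-to-1 assignment; 95.0% of assignments were also the nearest position. Consecutive clone IDs, not used in the assignment, lay in the same spot column in 95.7% of cases, against 8.46% from column frequencies. Positions A07 (taken as water) and A11 and A12 (taken as cvu03687) were left out, on the match of their counts. Background was the A07 median plus 3 scaled median absolute deviations per array. Adjusted p-values and calls come from the deposited table, and background calls, bounds and neighbours come from the assigned scanner positions.

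By rule, the 2 greatest rises and 2 greatest falls called with FSH in stage III are named, plus 1 clone per direction from FSH against LH. Members, lists and tests were chosen with earlier results of these data known. Gene and marker lists could not be used without gene names.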

Additional observations from a re-analysis of the deposited data

Results flagged for a closer look

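In 56 groups of values, each a named clone or an array measure in 6 arrays, 2 single arrays stood apart from their group by Dixon's test, where chance gives about 2.8. Clone 1rt34l03_b_f02 had a log2 value of 8.93 in stage I-II Ctrl replicate 19, against 6.66 to 6.92 in the other 5 Ctrl arrays. The scanner signal at its assigned position on that array was 158, beside 91 to 147 on the others. From the quantile-normalised scanner signal the stage I-II FSH rise was 13.2-fold, and from the deposited values 10.1-fold; without replicate 19 they gave a log2 change of 3.69 instead of 3.34.

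The share of clones above background was 62.5% on stage III Ctrl replicate 57, against 71.8% to 77.2% on the other 5 stage III Ctrl arrays. Its background threshold was 140 intensity units, the highest of the 12 arrays. Without it, 95 clones were called with FSH in stage III, of which 93 were among the 113.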

How the results depend on the processing

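No paired analysis was possible because the labels do not tie fragments to fish and the groups share no replicate numbers. Whether fragments of the same testis are in more than 1 group is therefore not known. The stage III FSH count of 113 was 59 with only the compared groups fitted, 71 at an adjusted p under 0.01 and 227 with equal block medians (108 of the 113 among them); it was 95 with touching calls counted once, and under the other settings, single left-out arrays apart, it was 102 to 160, the last from the scanner signal. For FSH in stage I-II (140 calls) the count was 244 with array weights, 81 at 0.01, 227 from the scanner signal, 92 without clones touching a far brighter spot (3918 clones tested) and 215 with equal block medians. For FSH against LH in stage III (15 calls) it was 1, 9, 3, 40, 25 and 59 under compared groups only, array weights, 0.01, scanner signal, no touching of brighter spots and equal block medians. The stage difference (0 calls) gave 1 from the scanner signal and 4 with equal block medians. A stricter threshold lowers a count by construction, and some settings tested fewer clones. In stage I-II the compared arrays alone gave 100 clones higher and 59 lower, against 91 and 49 in the main fit. Arrays differed from the mean of the others in their group by an SD over clones of 0.21 to 0.25 in stage I-II Ctrl. It was 0.26 to 0.32 in stage I-II FSH and 0.27 to 0.42 on the 12 stage III FSH and Ctrl arrays. The main fit pools the spread of all groups. Fits of only the compared groups keep each log2 change and alter only the estimate of its spread and the number of arrays behind that estimate. Why their counts differed from the main fit as they did was not tested. Leaving out 1 array gave 95 to 137 calls for FSH in stage III, 105 (without FSH 25) to 147 in stage I-II, 7 to 20 for FSH against LH and 0 in all 24 fits for the stage difference. All 12 such fits for FSH in stage III called 39 of the 63 risers and 34 of the 50 fallers. In contrast, 13 risers and 6 fallers were called in 6 or fewer of the 12. In stage I-II tcba0015.e.19, not called, turned from -0.06 to 0.02 without FSH 26, in a leave-one-out range of -0.12 to 0.055 (without Ctrl 23). The lists from the compared arrays alone, equal block medians, the fitted scanner column, counting touching calls once and the left-out array sets were added after the data were seen. Signal near background limits the fold of dim clones.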
